A study of Rattus norvegicus with 12 samples.

Results

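The lost m6A regions are stretches of the rat genome in which an m6A peak was called in each of the 3 sham retina samples and in none of the 3 TON (traumatic optic neuropathy) samples, while the RNA of the gene kept its level. To find them, any peaks of the 6 samples with 1 base or more in common were joined, which gave 24605 regions. A region was lost when sham 1, 2 and 3 each had a peak in it and TON 4, 5 and 6 had none. It was kept here when its gene averaged at least 5 FPKM (fragments per kilobase of transcript, scaled to the mapped fragments of the library) in both groups, and when its mean FPKM in TON was no more than 25% below and no more than 33% above that in sham. A total of 385 regions in 351 genes met this rule, out of 457 lost regions in all and out of the 24605 merged regions. The members were chosen by measured values, namely the peak calls of all 6 lists and the mean FPKM of both groups, so these are described below and not tested.

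The retinas were collected 12 h after surgery. In the TON group, the optic nerve of male Sprague-Dawley rats aged 7 to 8 weeks was clamped 2 mm behind the eye for 10 s with a force of 40 g. The sham rats had the same surgery without the clamp. Each sample was a pool of 4 rats, so a sample shows a mean over animals, and each gave an m6A-immunoprecipitated library and an input library (12 libraries in all, 3 samples per group).

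N6-methyladenosine (m6A) is a methyl mark on adenosines inside RNA. A complex built around Mettl3 and Mettl14 writes it while the RNA is being made, Fto and Alkbh5 can remove it, and reader proteins such as the YTH family bind it and act on the splicing, translation and decay of the transcript. The mark is known to gather near stop codons and in long exons. In MeRIP-seq, RNA fragments are pulled down with an antibody against m6A, and a peak is a stretch with more pulled-down than input reads. A peak that is not called says that the excess did not pass the caller's limit and does not show that the mark is absent.

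The authors called peaks in each sample on its own. The lists held 14233, 13102 and 12424 peaks in TON 4, 5 and 6, against 13854, 12822 and 13422 in sham 1, 2 and 3. Among the 19180 merged regions that lie in genes of stable RNA, 2.01% were lost and 1.51% (290 regions in 273 genes) were gained, that is, held by all 3 TON lists and no sham list. Over all merged regions the shares were 1.86% lost and 1.67% gained. The stable-RNA rule kept 84.2% of the lost regions and 70.6% of the gained ones. Of the 72 lost regions it left out, 37 lay in genes whose ratio was outside the limits (18 above and 19 below), 24 in genes with less than 5 FPKM in a group, and 11 carried a gene name that the expression table does not hold.

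A single TON sample bears on this set more than the others. Of the 6266 stable-RNA regions with a peak in all sham lists, 6.14% were lost. A further 617 had a TON peak in TON 5 alone, against 104 in TON 4 alone and 46 in TON 6 alone. Counting every combination of lists, 5527 of the 6266 had a peak in TON 5, against 5046 in TON 4 and 4654 in TON 6. Without TON 5, 997 regions met the rule. Leaving out a sham sample also let in more regions, with 620 without sham 1, 881 without sham 2 and 645 without sham 3. Leaving out any list drops a condition of the rule, so a rise is largely built in and only its size differs between samples. The 385 members are those that passed with all 6 lists.

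The set is made of many single regions. Of the 351 genes, 319 held 1 lost region, 30 held 2, and 2 genes, Ttr and Dis3l2, held 3. Lost regions were found on every autosome and on chromosome X, from 1.31% of the stable-RNA regions on chromosome X to 3.12% on chromosome 14. Genes of stable RNA with a lost region made up 5.44% of the 6458 stable-RNA genes with a peak in any list, which is the share to set beside the gene groups below. Positions are those of the authors' files. Their build could not be settled, since the paper names a human genome build for the RNA-seq reads, although the samples are rat, and an Ensembl genome without a version for the peaks, and exon, intron and UTR locations were not computed because transcript models of that build were not used here.

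The strongest lost region lay in Hnrnpk, which encodes an RNA-binding protein of the hnRNP family (chr17:8879853-8881027, 1175 bases, 587 bases from the 3′ end of the gene). Its score, which is minus 10 times log10 of the caller's p-value, was 3100 in each of sham 1, 2 and 3, with fold enrichments over input of 52.1, 58.0 and 66.3. No TON list had a peak there. The nearest TON peak of the gene, found in TON 4 and TON 6, was 7374 bases away along the genome, introns included. Hnrnpk RNA was 158, 159 and 154 FPKM in TON, against 138, 137 and 145 FPKM in sham, so all 3 TON libraries were a little above all sham libraries (ratio 1.12). A second row named Hnrnpk, at another place in the expression table, was not used because the region does not lie in its locus.

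Drap1, a subunit of a repressor of transcription by RNA polymerase II, held the next strongest lost region (chr1:227733170-227733815). It scored 2412, 3100 and 2454 in sham 1, 2 and 3 with enrichments of 17.9, 20.1 and 18.8, and it lay 367 bases from the 3′ end of the gene. It was the sole peak of Drap1 in any of the 6 lists. Drap1 RNA was 20.2, 28.5 and 28.3 FPKM in TON, against 28.7, 26.1 and 24.9 FPKM in sham, and the groups overlapped.

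Zwint, a kinetochore protein, held the lost region of the most abundant RNA (chr20:19272347-19272513). The region scored 2608, 2524 and 515 in sham 1, 2 and 3, but its enrichments were low, at 4.77, 5.86 and 3.38. Zwint RNA was 752, 692 and 654 FPKM in TON, against 587, 639 and 619 FPKM in sham, and TON lists held no Zwint peak at all, against 1 further peak each in sham 1 and sham 3. Zwint thus combined high scores with enrichments below the median of each list.

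Genes of ribosome parts and ribosome assembly were among the strong members. The region in Rps3, a protein of the small ribosomal subunit (chr1:170641926-170642056), scored 2606, 819 and 1224 in sham with enrichments of 18.5, 8.11 and 9.25, and Rps3 had no TON peak. The region in Tsr1, which takes part in the maturation of the small subunit (chr10:61474016-61474209), scored 843, 1624 and 1534 with enrichments of 16.6, 20.0 and 18.6. Tsr1 still had 3 other peaks in each TON list, against 2 other peaks in each sham list, and it is 1 of 12 genes that held both a lost and a gained region. Tsr1 RNA was 22.3, 21.2 and 18.97 FPKM in TON, against 17.75, 15.997 and 16.8 FPKM in sham, with no overlap between the groups.

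The rest of the 10 highest-scoring lost regions came from unlike genes. Ep400, a chromatin-remodelling ATPase (chr12:53766195-53766391), scored 2106, 861 and 1247 in sham. Cc2d2a, a protein of the transition zone of cilia (chr14:71958795-71959036), scored 1127, 375 and 2180, and Cadm1, a synaptic adhesion protein of the immunoglobulin family (chr8:50738573-50738731), scored 1020, 893 and 221. Mast3, a protein kinase (chr16:20269980-20271835), scored 544, 1286 and 108 and was the longest lost region, at 1856 bases. Ap1m1, the medium subunit of the AP-1 clathrin adaptor (chr16:19154793-19154940), scored 563, 610 and 634, the most even of these scores. The scores of Mast3 show how far 1 region can differ between samples of the same group.

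**Figure D1:**
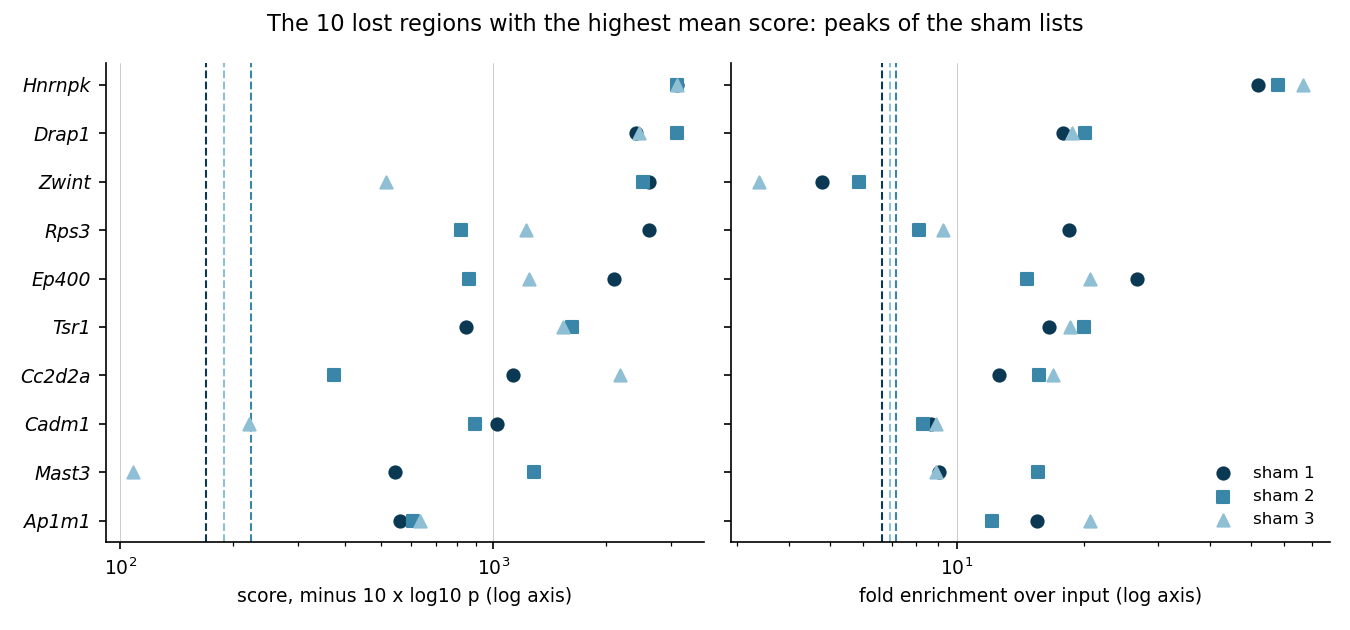
Score (left) and fold enrichment over input (right), both on log axes, of the peaks in sham 1, 2 and 3 for the 10 lost regions with the highest mean score. Dashed lines are the medians of all peaks of each sham list (scores of 170, 224 and 190). Hnrnpk stood apart in enrichment (52.1 to 66.3), and Zwint had high scores with enrichments of 3.38 to 5.86. TON lists held no peak in these regions.

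Most lost regions were weak peaks. Their median score was 137, 106 and 121 in sham 1, 2 and 3, against medians of 170, 224 and 190 over all peaks of the same lists, and their median enrichment was 6.21, 5.85 and 6.16. Within its own list, the median lost region stood at percentile 42.4 in sham 1, 26.5 in sham 2 and 35.4 in sham 3. Gained regions stood at percentiles 49.0, 32.9 and 43.0 of the TON 4, 5 and 6 lists, and the 4232 stable-RNA regions found in all 6 lists stood at 70.0 to 75.8. Regions that every sample held were thus stronger than those that either group alone held.

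Few members were strong in all sham samples. The score reached 100 in all 3 sham lists in 107 lost regions and 500 in 7, those of Hnrnpk, Drap1, Zwint, Rps3, Ep400, Tsr1 and Ap1m1. The enrichment reached 10 in all 3 in 8 regions, and 29 regions were above the median score of every sham list. The false discovery rate that the caller attached to the peaks was high. Its median over the lost regions was 33.5%, 62.4% and 100% in sham 1, 2 and 3, it was 100% in sham 3 for 257 regions, and it was under 50% in all 3 lists for 16.

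**Figure D2:**
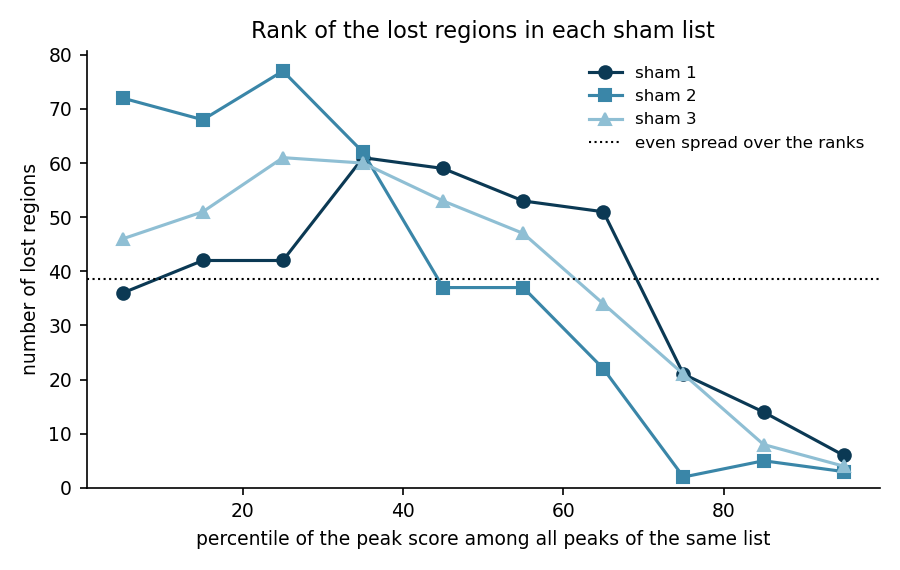
Number of lost regions by score rank, in steps of 10 percentiles, in sham 1, 2 and 3, where percentile 100 is the strongest peak of that list. The dotted line is the number that an even spread over the ranks would give. The lost regions gathered in the lower ranks, most of all in sham 2, with median percentiles of 42.4, 26.5 and 35.4.

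The lost regions were short, and sat in another part of the gene than the gained ones. Their median length was 149 bases (interquartile range 112 to 206), against 376 bases for gained regions and 252 bases for regions of all 6 lists. The lists that lost and gained regions come from differed in length as well. The median over all peaks was 196, 198 and 183 bases in sham 1, 2 and 3, against 287, 201 and 300 bases in TON 4, 5 and 6. Under 200 bases were 71.7% of the lost, 37.9% of the gained and 41.9% of the shared regions, and 3.38%, 42.4% and 37.1% reached 500 bases. In 371 lost regions (96.4%) the peak had the same 2 edges in all 3 sham lists, so these lengths seldom depended on merging. The edges were also the same in 83.8% of the gained regions, over the TON lists, and 88.7% of the shared ones, over the sham lists. What set the edges was not tested, and exon locations were not computed. The 3 longest lost regions were Mast3, Angel2, a protein related to deadenylases (1742 bases), and Iqcb1, a ciliary protein (1319 bases). All 3 lay in the last 10% of their gene.

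Positions were measured along the gene locus, introns included, from the 5′ end. The median position was 41.7% for the 369 lost regions inside the locus of their gene, 78.5% for gained regions and 58.0% for regions of all 6 lists. Within 2000 bases of the 3′ end lay 22 lost regions (5.96%), against 29.5% of the gained and 20.4% of the shared regions. Within 2000 bases of the 5′ end lay 82 lost regions (22.2%), against 12.5% of the gained and 20.0% of the shared regions. The low share of lost regions at the 3′ end was also found under every alternative definition of a lost region, between 3.55% and 11.4%, against 24.7% to 55.6% for the gained regions. The regions of one list are not replicates and share their samples, so these shares carry no test.

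**Figure D3:**
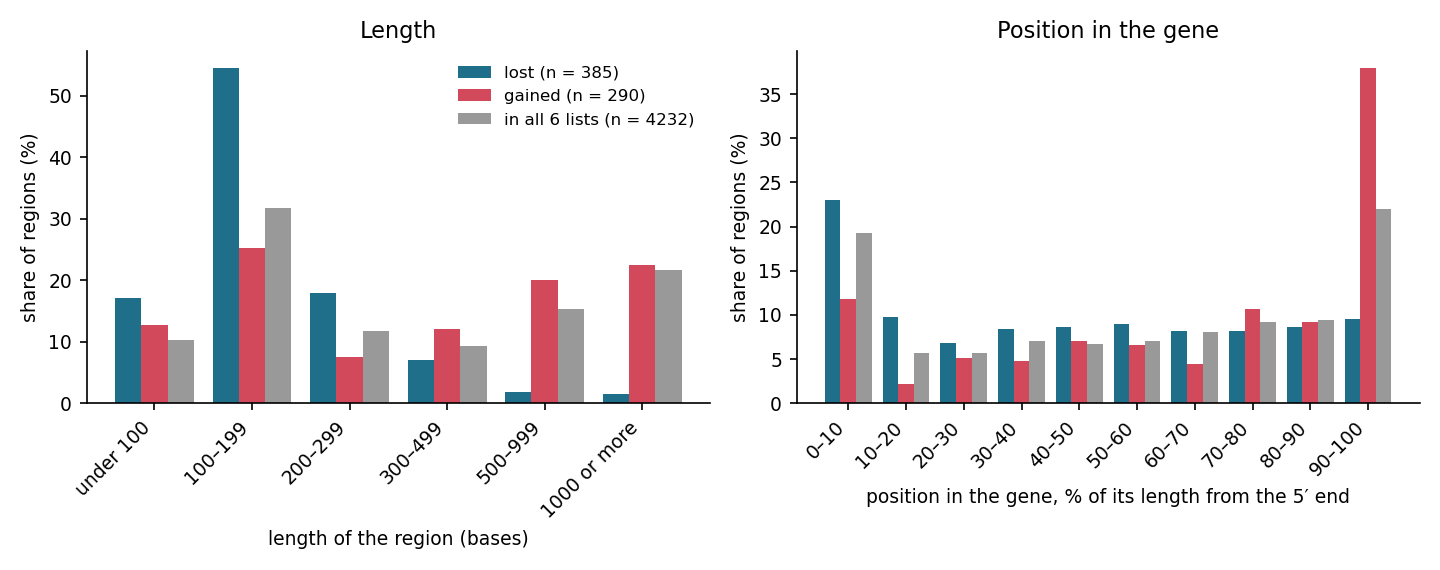
Share of regions in stable-RNA genes by length (left, in bases) and by position along the gene locus (right, in steps of 10% of its length from the 5′ end, regions inside the locus). Bars are lost regions (n = 385), gained regions (n = 290) and regions in all 6 lists (n = 4232). Of the lost regions, 54.5% fell in the class from 100 bases to below 200 bases and 23.04% in the first 10% of the gene, whereas 38.0% of the gained regions lay in the last 10%.

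Peaks of the host genes that the rule did not use were counted per list. Outside the lost regions, the 351 host genes held 687, 819 and 554 peaks in TON 4, 5 and 6, against 884, 781 and 907 in sham 1, 2 and 3. TON averaged 687 ± 132 peaks and sham 857 ± 67.1 (SD, n = 3 each), 19.9% fewer in TON, with TON 5 above sham 2. The difference did not pass a two-sided exact permutation test (p = 0.2, where 0.1 is the smallest p that 3 against 3 samples allow). Counting whole groups, 206 host genes (58.7%) had fewer other peaks in the 3 TON lists than in the 3 sham lists, 66 (18.8%) had more and 79 (22.5%) had the same number. Of the 6107 other stable-RNA genes with a peak, 36.9% had fewer peaks in TON, 41.6% had more and 21.5% had the same number. Genes are not replicates, so this split is a description. The hosts were chosen from these same 6 lists, for sham peaks that TON lacked. That choice can carry over to other peaks of the same genes, so neither the split nor the tests on host genes can show a separate loss. Without TON 5 the difference was 237 peaks fewer, at p = 0.1 in the exact permutation test, the smallest value for 2 against 3 samples.

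The same count was set against the other genes of stable RNA. All stable-RNA genes together held 10589, 10147 and 9145 peaks in TON, against 10790, 9829 and 10474 in sham, outside lost and gained regions (p = 0.6, exact permutation test). Divided by these totals, the count in host genes came to 6.49%, 8.07% and 6.06% in TON, against 8.19%, 7.95% and 8.66% in sham. The host count includes the peaks of gained regions, which 12 hosts held, and the totals do not. The share was lower in TON 4 and TON 6 than in every sham list and within the sham range in TON 5 (p = 0.2, exact permutation test). The choice of the hosts limits this comparison in the same way.

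The shift along the gene was also looked for in peaks outside the lost and gained regions, a comparison added after the positions had been seen. Of these peaks in stable-RNA genes, 23.5%, 16.5% and 24.05% lay within 2000 bases of the 3′ end in TON, against 15.5%, 17.6% and 14.2% in sham. In the host genes the shares were 12.9%, 7.50% and 12.6% in TON, against 6.73%, 7.79% and 6.81% in sham. TON 4 and TON 6 were above all sham lists and TON 5 was inside their range, and neither comparison passed the exact permutation test (p = 0.2 each, 0.1 without TON 5).

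**Figure D4:**
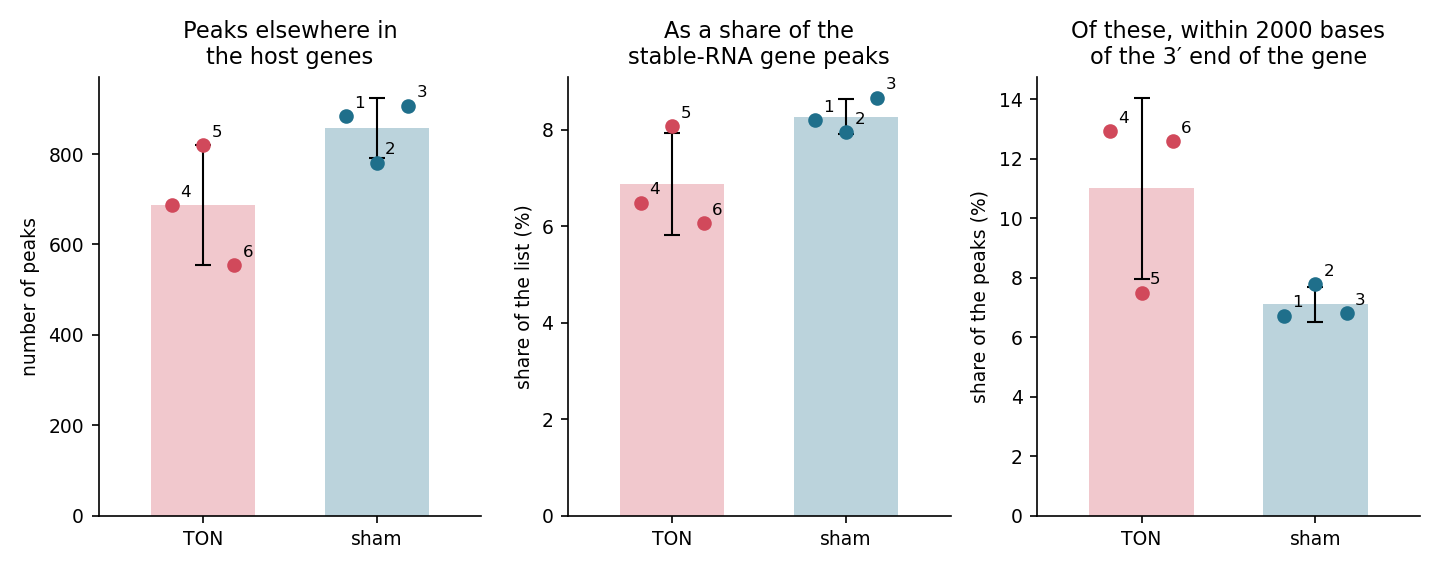
Peaks in the 351 host genes outside the lost regions, for TON (left) and sham (right) in each panel: their number, their number as a percentage of all stable-RNA gene peaks outside lost and gained regions, and the share of them within 2000 bases of the 3′ end of the gene (%). Points are lists with their sample number, bars the group mean and error bars the SD (n = 3). Peaks of gained regions are part of the number and not of the total it is divided by. TON 5 lay with the sham samples in all 3 panels.

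A loss in 1 region was seldom the loss of every peak in the gene. In 311 lost regions the gene still had a TON peak. Along the genome, introns included, it was 495 to 296438 bases away (median 6526), and in 21 it was within 1000 bases. The closest were in Ppp1r7, a regulator of protein phosphatase 1 (495 bases), Alms1, a centrosome protein (507 bases), Syne1, a nuclear envelope protein (519 bases), Zfand4 (527 bases) and Chd7, a chromatin remodeller (553 bases). The farthest were in Sbf2 (296438 bases), Dock9 (259079 bases), Vps13a (253283 bases), Fstl5 (243156 bases) and Spata5 (180300 bases). In 136 of the genes, with 152 lost regions, another region was held by all 6 lists, so the caller found those transcripts in every sample. An example is DMD, which encodes dystrophin, with 2 lost regions beside 9 regions found in all 6 lists.

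The other 74 lost regions lay in 70 genes with no TON peak anywhere. In 31 genes of the 351, the lost regions were the sole peaks in any list. Ttr, the carrier of thyroid hormone and of retinol-binding protein, was the most abundant of these, with 3 lost regions on chromosome 18 (15310744-15310879, 15313421-15313551 and 15314598-15314777). The region nearest to the 5′ end scored 347, 394 and 487 in sham 1, 2 and 3, and the others scored 291, 266 and 99.7, and 344, 60.2 and 189. Ttr RNA was 337, 373 and 270 FPKM in TON, against 264, 331 and 523 FPKM in sham. Ttr is a marker of the retinal pigment epithelium. The 9 markers of that tissue, Ttr among them, summed to 476, 580 and 422 FPKM in TON, against 389, 451 and 776 FPKM in sham. Ttr itself made up most of each sum, so the sums are no separate measure of that tissue. The part of that tissue in the Ttr regions was not tested.

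Other abundant genes without a TON peak were Ywhaq, an adaptor that binds phosphorylated proteins, Bbs9, a part of the complex that carries proteins into cilia, and Atp5c1, the gamma subunit of ATP synthase. The Ywhaq region (chr6:60360494-60360827) scored 307, 277 and 187 in sham and was near the 5′ end of the gene, at 1.92% of its length. The Atp5c1 region (chr17:73905201-73905332) scored 661, 69.9 and 107. Neither Ywhaq nor Atp5c1 had another peak in any list. Atp5c1 RNA was 131, 121 and 111 FPKM in TON, against 105, 107 and 139 FPKM in sham.

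The RNA of the host genes covered a wide range. Mean FPKM over the 6 libraries ran from 5.77 to 657 with a median of 34.3, against 22.3 for stable-RNA genes with a peak, 27.2 for hosts of gained regions and 23.2 for hosts of regions in all 6 lists. It was over 100 FPKM in 32 hosts and under 10 FPKM in 14. In bulk retina, fewer cells of a type and less RNA per cell cannot be told apart. With limma over all 15900 genes tested, 6 genes rose (0.0377%) and 1 fell (0.00629%) at an adjusted p under 0.05, and no host did. The lowest adjusted p of a host was 0.315, in Psmd2, a subunit of the proteasome, with 62.7, 72.5 and 71.7 FPKM in TON, against 51.4, 53.2 and 52.9 FPKM in sham. An unadjusted limma p under 0.05 was found in 28 hosts, where 10.4% of all genes had one. All 3 TON libraries were above all sham libraries in 44 hosts (10.8% of all genes) and below them in 31 (5.33% of all genes). The rule fixed the ratio of these genes, so nothing is read from these counts.

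**Figure D5:**
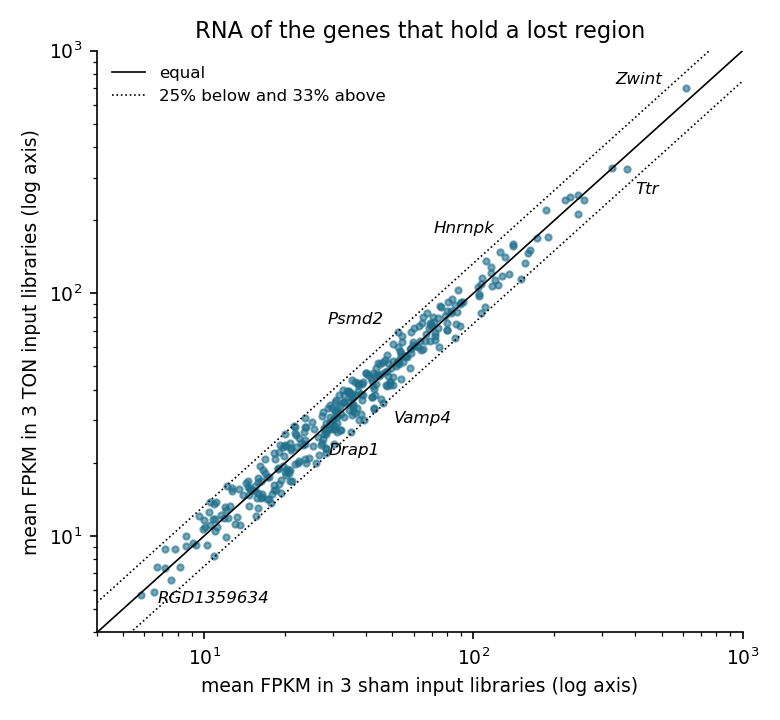
Mean FPKM of the 351 host genes in 3 TON input libraries (vertical) and 3 sham input libraries (horizontal), on log axes. The dotted lines are the limits of the rule, 25% below and 33% above sham. The genes run from 5.77 FPKM (RGD1359634) to 657 FPKM (Zwint), and none passes the limits by construction.

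Regions near these limits show how sharp the selection was. Just inside were Ap1m1 (28.5 FPKM in TON and 21.6 FPKM in sham, ratio 1.32), Ptpn14 (ratio 1.32), Sccpdh (ratio 0.757) and Crebrf (ratio 0.764). Just outside were Gosr2 (ratio 1.35), Akr1a1 (ratio 1.37), Crabp1 (ratio 0.7498) and Rsph3 (ratio 0.741). At the FPKM limit, RGD1359634 (5.71 FPKM in TON and 5.82 in sham) and Kcnmb4 (5.86 FPKM in TON and 6.49 in sham) were inside, and RGD1563159 (4.65 FPKM in TON and 5.03 in sham) and Chd1l (4.52 FPKM in TON and 5.66 in sham) were outside.

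Genes of vesicle traffic held lost regions in several classes. Golgi and coat proteins held them in 7 of 55 stable-RNA genes with a peak (12.7%, beside 5.44% of all such genes), namely Golga4, Copb2, Golgb1, Tmed9, Copg2, Ap1m1 and Golga5. Rab and Arf GTPases and their partners held them in 5 of 47 (10.6%), and SNAREs and their partners in 3 of 31 (9.68%). Rab6a, the GTPase of transport at the Golgi, held 2 lost regions (chr1:171826278-171826817 and chr1:171852561-171852672). They scored 365, 212 and 93.4, and 103, 71.6 and 89.1, in sham 1, 2 and 3. Rab6a had no TON peak, and its RNA was 73.6, 78.2 and 74.4 FPKM in TON, against 63.3, 71.5 and 73.1 FPKM in sham. These lists were read with earlier results of these data known, and their shares are descriptions of small counts.

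The SNARE genes were Stx3, the syntaxin of photoreceptor and bipolar ribbon synapses, Vamp4 and Stx8, which act at the Golgi and in endosomes. The Stx3 region (chr1:235231033-235231132) scored 104, 286 and 89.7 in sham, and a TON peak of Stx3 lay 1751 bases away along the genome. Stx3 RNA was 116, 107 and 99.96 FPKM in TON, against 118, 117 and 117 FPKM in sham, below every sham library in each TON library (ratio 0.916). The Vamp4 region (chr13:85356403-85356524) was weaker, with scores of 69.9, 55.3 and 55.2, and Vamp4 RNA was 34.9, 40.5 and 30.9 FPKM in TON, against 41.0, 54.2 and 43.6 FPKM in sham. Its ratio of 0.765 was close to the lower limit of the rule. Copb2, a subunit of the COPI coat, scored 373, 92.4 and 105 in sham and had no TON peak.

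Kinesin, dynein and dynactin genes held lost regions in 3 of 35 (8.57%, beside 5.44%), namely Dync1li2, Dync1h1 and Kif21a. Dync1li2, a light intermediate chain of dynein, held 2 lost regions (chr19:738998-739308 and chr19:741452-741568), which scored 206, 244 and 227, and 405, 55.3 and 309, in sham 1, 2 and 3. Dync1li2 RNA was 127, 111 and 103 FPKM in TON, against 104, 126 and 130 FPKM in sham, and no TON list held a peak in it. Among single abundant members outside these lists, Sptbn1, a non-erythrocytic beta spectrin, held 2 lost regions too, with scores of 300, 278 and 666, and 654, 103 and 491. Unlike Dync1li2, Sptbn1 kept 7, 12 and 5 other peaks in TON, against 14, 11 and 13 in sham. Ank2, an ankyrin that ties membrane proteins to spectrin, kept 2, 5 and 2 other peaks in TON, against 6, 4 and 5 in sham. App, the amyloid precursor protein, kept 5, 9 and 4 in TON, against 11, 10 and 10 in sham. In all 3 genes TON 4 and TON 6 had fewer other peaks than every sham list, and TON 5 did so in App alone. Hosts went both ways, with 206 that had fewer other peaks in TON and 66 that had more. Chd7, for example, had 9, 8 and 9 other peaks in TON, against 3, 8 and 7 in sham.

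Genes of energy metabolism and translation are also set beside the 5.44% of all stable-RNA genes with a peak. Subunits of the respiratory chain and ATP synthase held lost regions in 3 of 34 genes (8.82%), mitochondrial ribosomal proteins in 4 of 44 (9.09%) and cytosolic ribosomal proteins in 3 of 42 (7.14%). These shares, and those of the classes below, describe small counts. Ndufs4, a subunit of complex I, held 2 lost regions, and the one at its 5′ end (chr2:65515139-65515243) scored 408, 293 and 373 in sham. Rpl3 and Rpl5, proteins of the large ribosomal subunit, each kept a TON peak in TON 5 alone. The Rpl3 region (chr7:121291494-121291686) scored 471, 392 and 61.5 in sham, and Rpl3 RNA was 345, 325 and 315 FPKM in TON, against 312, 318 and 354 FPKM in sham. Splicing factors held lost regions in 5 of 52 genes (9.62%), namely Snrpn, Hnrnpk, U2af1, Prpf6 and Sf3a1, and heat shock and chaperone proteins in 3 of 44 (6.82%), all of the DnaJ class.

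Several other classes were near or below the 5.44% of all stable-RNA genes with a peak. For gained regions the count over all such genes was 273 of 6458. Nothing is read from the gained counts of these classes. Zinc finger genes of the Zfp series held a lost region in 1 of 168 (0.595%), in Zfp143, and a gained region in 7. Ubiquitin ligases and adaptors held lost regions in 6 of 150 (4.00%) and gained ones in 6, voltage-gated and potassium channels in 2 of 57 (3.51%) and gained ones in 4, and the proteasome in 1 of 28 (3.57%). Glutamate, GABA and glycine receptors (27 genes) and cadherins and protocadherins (44 genes) held no lost region, and held gained regions in 3 and 4 genes. Adhesion proteins of the immunoglobulin type held lost regions in 3 of 28 (10.7%), Cadm1, Cntn1 and Cntn4, and no gained one. Cntn1, a contactin of axons, kept 1, 3 and 1 other peaks in TON, against 10, 5 and 4 in sham.

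Among markers of 5 retinal cell types (photoreceptors, ganglion, bipolar, amacrine and horizontal cells, and Muller glia), 3 of 52 stable-RNA genes with a peak held a lost region (5.77%), near the 5.44% of all such genes. In amacrine and horizontal cell markers, 2 of 9 genes did. These were Calb2 (calretinin; chr19:52333933-52334004, scores of 255, 175 and 107 in sham) and Slc32a1, the vesicular transporter of GABA and glycine (chr3:160504252-160504727, scores of 208, 252 and 528). Calb2 RNA was 240, 212 and 211 FPKM in TON, against 186, 175 and 197 FPKM in sham, and Slc32a1 RNA was 13.5, 29.9 and 35.1 FPKM in TON, against 18.2, 21.8 and 20.1 FPKM in sham. Calb2 was higher in each TON library than in every sham library, and Slc32a1 overlapped. In retinal ganglion cells, whose axons the clamp presses, 1 of 9 markers did, Slc17a6, the vesicular glutamate transporter of these cells (chr1:108067368-108067510). It scored 203, 184 and 119 in sham and kept a TON peak 10906 bases away along the genome. None of 17 photoreceptor, 10 Muller glia or 7 bipolar cell markers with a peak did.

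Photoreceptor markers were abundant in every library and summed to 43808 to 45580 FPKM in TON, against 43755 to 46623 in sham. Markers of other eye tissues differed between libraries. Those of the lens summed to 2480 to 4064 FPKM in TON, against 3321 to 8130 in sham, and those of the ocular surface to 4.10 to 19.9 FPKM in TON, against 14.02 to 198.7 in sham, highest in sham 1. Of 16 lens markers 1 was of stable RNA, without a peak in any list, and of 7 ocular surface markers 0 were. The stable-RNA rule thus left out nearly all of these genes, and their lack of lost regions says nothing about these tissues. Their part in the peak lists was not tested.

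The genes that write, erase and read m6A held no lost region themselves. Among them, 7 writers, 2 erasers and 10 readers were of stable RNA with a peak. Over all such genes 5.44% held a lost region, so nothing is read from these small counts. Gained regions were held by 2 of the writers and 1 of the readers, beside 273 of all 6458 stable-RNA genes with a peak. At an adjusted p under 0.05, limma called 0 of 8 writers, 0 of 2 erasers and 0 of 13 readers in either direction. An unadjusted limma p under 0.05 was found in 1 of the 23, where 10.4% of all genes had one. Over all 15900 genes tested, 6 rose and 1 fell at the adjusted limit, so nothing is read from these counts. Mettl3 RNA was 27.5, 21.2 and 31.4 FPKM in TON, against 29.0, 26.7 and 24.4 FPKM in sham. Fto RNA was 41.5, 44.8 and 42.4 FPKM in TON, against 35.7, 37.7 and 38.7 FPKM in sham, above every sham library in each TON library but with an adjusted p of 0.521 (log2 fold change 0.19 ± 0.09, SE, limma). The reader Hnrnpa2b1 was 247, 190 and 197 FPKM in TON, against 288, 318 and 278 FPKM in sham (log2 fold change -0.49 ± 0.12, SE, limma adjusted p = 0.335). Its groups did not overlap, and it had the lowest p of these genes.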

How the data were processed

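Input RNA-seq and m6A immunoprecipitates of 6 pooled rat retina samples were used. The authors trimmed reads with cutadapt 1.9.3, aligned them with HISAT2 2.0.4 and computed expression with Cufflinks and Cuffdiff. The deposited table gives FPKM per gene and library, and beside it a scaled signal that was not tested. The authors called peaks per sample with MACS, and the deposited lists give each peak's score, its fold enrichment (a ratio to input), its false discovery rate in percent and its length in bases (other unit). Columns of the authors' own comparisons were not used. Depth of the immunoprecipitates is unknown, and replicates are pools of 4 rats.

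Regions were merged in Python 3.11.15 with pandas 2.3.3. RNA was tested with limma 3.58.1 (R 4.3.3, intensity trend) on log2(FPKM + 1) for genes of at least 0.1 FPKM in either group, with Benjamini-Hochberg adjustment. The steps were tested on simulated data. The members, the gene lists and the genes named (by abundance, score, length, distance, number of regions, list and limits) were chosen with earlier results of these data known. Lists per sample were compared by exact permutation tests.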

Additional observations from a re-analysis of the deposited data

How the results depend on the processing

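The number of lost regions (385) depended on the stringency of the peak lists and on single samples. It was 242 with the top 50% of each list (29 shared with the 385), 1418 with a peak in 2 of 3 sham lists, and 74 when no TON peak was allowed in the whole gene. Leaving out 1 sample drops a condition of the rule, so a rise is largely built in. It gave 426 to 997 regions, the most without TON 5. Leaving out TON 5 and sham 1 together, chosen after seeing the data, gave 1358. The other 8 definitions gave 262 to 421, but the members could change where the count did not. A score of at least 100 gave 262 regions, 107 of them shared with the 385. The same number of top peaks in each list gave 352, 304 of them shared. An overlap of at least 100 bases gave 318, 317 of them shared. The genes passing limma over all genes (7) were 3 to 15 when 1 sample was left out (3 without sham 1 and 15 without sham 3). The counts and shares of peaks elsewhere in the host genes kept their direction in every alternative run, with differences of -237 to -93.0 peaks. All runs used the same hosts, chosen from these lists for sham peaks that TON lacked. The direction can carry over from that choice, so its persistence shows no separate loss. No paired analysis was possible because no replicate number occurs in both groups (sham holds 1 to 3 and TON holds 4 to 6). Precision is limited by 3 samples per group, by unknown depth and by high false discovery rates.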

Other observations

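The 12 genes that held both a lost and a gained region were Anks1a, Camsap2, Chd7, Dlgap1, Eml5, Fam53a, Gnai1, Ppp1r12a, Rad21, Rbm27, Tsr1 and Zfp143. Bax and Ctsd, picked after their values were seen, were without any TON peak. In Bax, a promoter of cell death, the lost region (chr1:102535293-102535439) scored 182, 60.9 and 53.7 in sham 1, 2 and 3, with RNA at 26.2, 13.8 and 14.95 FPKM in TON, against 16.9, 17.6 and 25.2 FPKM in sham. In Ctsd, the lysosomal protease cathepsin D, the lost region (chr1:222448620-222448798) scored 64.2, 196 and 390 in sham, with RNA at 152, 150 and 140 FPKM in TON, against 129, 117 and 130 FPKM in sham.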
